A study of Mus musculus with 24 samples.

Results

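The regions described are 2 segments of mouse chromosome 9, bases 50000000 to 75000000 (the lower segment) and 115000000 to 125000000 (the upper segment) of mm10, in which the accessibility of many sites differed between macrophages with and without the coregulator GRIP1. They hold every peak of the deposited count table whose start lies inside those limits, 3349 of 144411 peaks, with 2412 in the lower and 937 in the upper segment. The segments were chosen by measured values, the KO against WT differences of their peaks. The KO against WT values below therefore describe the choice and test nothing. The treatment effects and the genotype by treatment tests are other contrasts. They use the same libraries, so their independence of the choice is not shown.

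The assay was ATAC-seq, whose transposase inserts adapters where chromatin is open, in bone marrow-derived macrophages of male C57BL/6 mice aged 8 to 10 weeks, grown for 5 days. Both genotypes carried LysM-Cre+/+, the Cre recombinase under a myeloid promoter. KO cells were GRIP1fl/fl and WT cells GRIP1wt/wt. Each genotype received vehicle, 100 nM dexamethasone (Dex) or 10 ng/ml IL4, with 4 libraries in each of the 6 groups. The treatments lasted 24 h, except that a label gives 25 hours for vehicle. The labels name no mouse or culture for a library, so the spread behind the p-values below is that between libraries and may be technical.

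GRIP1, encoded by Ncoa2 on chromosome 1, is a p160 coregulator that the glucocorticoid receptor and other nuclear receptors recruit to their target sites. Dex is a synthetic glucocorticoid, and IL4 turns macrophages to alternative activation through STAT6. The segments lie on another chromosome than Ncoa2 and hold, among others, the genes of the TGF beta receptor Tgfbr2 and its transducers Smad3 and Smad6 and the chemokine receptor genes Ccr1, Ccr2 and Ccr3, whose products guide leukocytes into tissue.

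The 5 promoters below are shown because the peak over the gene's start differed between KO and WT. Neo1, Aph1b and Plcd1 had such a difference under all 3 treatments, where genes with provisional symbols, such as those ending in Rik, were left out by name. Tgfbr2 and Ccr3 belong to the signalling and chemokine receptor genes described later. Each line gives the 250 bases before the start, 5' to 3' on the gene's strand, from RefSeq (GRCm38.p6, the assembly behind mm10). Capitals mark the motifs searched, with none overlapping another here. They are a GC box (GGGCGG, or CCGCCC on the other strand) and a CCAAT box (ATTGG on the other strand). They are also the core of a PU.1 site (GAGGAA, or on the other strand TTCCTC). The fourth is an AP-1 site (TGAGTCA, or on the other strand TGACTCA).
Neo1 (chr9:59036442-59036691, minus strand): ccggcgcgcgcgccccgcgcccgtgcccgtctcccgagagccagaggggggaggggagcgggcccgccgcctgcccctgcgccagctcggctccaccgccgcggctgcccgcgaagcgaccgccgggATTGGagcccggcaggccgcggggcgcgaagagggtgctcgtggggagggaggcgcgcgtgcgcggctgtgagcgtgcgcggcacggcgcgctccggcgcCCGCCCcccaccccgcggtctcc
Aph1b (chr9:66795424-66795673, minus strand): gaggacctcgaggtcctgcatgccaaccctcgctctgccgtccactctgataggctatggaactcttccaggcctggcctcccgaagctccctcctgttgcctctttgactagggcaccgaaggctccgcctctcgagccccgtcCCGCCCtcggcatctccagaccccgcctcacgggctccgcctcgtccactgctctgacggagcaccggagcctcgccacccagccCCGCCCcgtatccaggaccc
Plcd1 (chr9:119088262-119088511, minus strand): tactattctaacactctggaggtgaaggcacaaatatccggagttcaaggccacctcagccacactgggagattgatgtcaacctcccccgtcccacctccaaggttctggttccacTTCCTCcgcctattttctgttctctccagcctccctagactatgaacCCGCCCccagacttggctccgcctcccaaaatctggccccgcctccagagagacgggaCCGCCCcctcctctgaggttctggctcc
Tgfbr2 (chr9:116175364-116175613, minus strand): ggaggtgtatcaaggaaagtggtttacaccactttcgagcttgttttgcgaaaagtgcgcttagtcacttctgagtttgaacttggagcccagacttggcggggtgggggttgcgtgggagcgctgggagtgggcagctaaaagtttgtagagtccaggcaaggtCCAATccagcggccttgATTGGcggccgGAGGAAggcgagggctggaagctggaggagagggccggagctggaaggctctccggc
Ccr3 (chr9:124021721-124021970, plus strand): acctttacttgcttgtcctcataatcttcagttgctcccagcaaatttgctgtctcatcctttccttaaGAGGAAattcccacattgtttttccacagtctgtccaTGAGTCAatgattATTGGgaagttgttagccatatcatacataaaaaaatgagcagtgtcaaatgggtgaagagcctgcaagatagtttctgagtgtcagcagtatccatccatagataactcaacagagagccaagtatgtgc
The Neo1 window holds 45 CpG dinucleotides, 1 GC box and 1 CCAAT box, and the Aph1b and Plcd1 windows hold 2 GC boxes each. The Ccr3 window holds no CpG and 1 AP-1 site. Over all 32851 promoter windows of the same length, 32.7% hold a GC box, 33.8% a CCAAT box, 23.3% a PU.1 core and 4.46% an AP-1 site.

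These promoters differed little compared with sites away from genes. Values are CPM, counts in a peak over all counts in peaks of the library, scaled to 1000000 after TMM normalisation. They are given as lowest, median and highest of the 12 libraries of a genotype. Fold changes are fitted log2 values of KO over WT averaged over the treatments, with a standard error (SE). The SE is an approximation, the absolute fold change over the square root of the F value of edgeR's test. Plcd1, a phospholipase C, read 34.4, 43.2 and 53.7 CPM in WT and 21.8, 28 and 31.9 CPM in KO, without overlap (−0.62, SE 0.04). Neo1, which encodes the netrin and RGM receptor neogenin, read 5.62, 7.18 and 8.76 CPM in WT and 7.34, 11.4 and 12.6 CPM in KO (+0.57, SE 0.07). Aph1b, a subunit of the gamma-secretase protease, read 94.7, 112 and 144 CPM in WT and 71.4, 84.8 and 97.2 CPM in KO (−0.42, SE 0.04). The Neo1 and Aph1b ranges overlapped at their ends. The Tgfbr2 promoter read 22.3, 29.1 and 36.9 CPM in WT against 27.5, 33.7 and 41.1 CPM in KO (+0.24, SE 0.04), and that of Ccr3 3.1, 5.83 and 10.9 CPM against 2.49, 5.02 and 8.32 CPM (−0.36, SE 0.09), both with wide overlap. Among the 285 tested peaks that touched a promoter window, 41 were called (adjusted p below 0.05 in edgeR), 14 higher and 27 lower in KO, and 1 of them was at least 2-fold different. That is 14.4%, beside 3.52% of such peaks over the genome and 4.54% of all tested peaks.

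The libraries held 5820149 to 21939330 counts in peaks in WT (median 11131980) and 7552327 to 17845255 in KO (median 11766715), with a median of 33 counts per tested peak and library. The segments took 2.14% to 2.24% of the counts of a WT library and 2.15% to 2.19% of those of a KO library. All 8 macrophage markers had a tested peak at the gene's start, summing to 255 CPM in WT and 248 CPM in KO, while 0 of 5 T and NK cell, 0 of 4 fibroblast, 0 of 3 mast cell and 0 of 3 erythroid markers had one. Of the neutrophil, B cell and dendritic cell markers, 3 of 6, 2 of 5 and 3 of 3 had one, at sums of 34.9, 5.68 and 28.8 CPM in WT and 33.4, 5.39 and 28.9 CPM in KO. At Ncoa2 itself, the peak over the start (chr1:13372246-13374626) read 71.3, 86.3 and 101 CPM in WT and 72, 88.2 and 94.9 CPM in KO. Of the 21 tested peaks assigned to Ncoa2, the 2 with the lowest p differed without overlap. They lay 49.7 kb upstream (0.408, 1.1 and 2.96 CPM in WT and 3.83, 7.85 and 16.5 CPM in KO; log2 2.66, SE 0.11) and 116 kb downstream of the start (5.91, 6.95 and 7.96 CPM in WT and 2.57, 3.04 and 3.97 CPM in KO; −1.17, SE 0.09). The labels do not say which part of Ncoa2 is deleted, so these peaks do not check the genotype.

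Differences between KO and WT were spread over both segments, went both ways and were present under every treatment. A peak was called where its adjusted p in edgeR's quasi-likelihood test, fitted on all 130103 tested peaks of the genome, was below 0.05. The low-count filter kept 3000 of the 3349 peaks of the segments (2158 lower, 842 upper) and removed 349. Under vehicle 217 of the 3000 were called, or 7.23% beside 0.616% of all tested peaks, 97 higher in KO (0.304% of all) and 120 lower (0.312% of all). Under Dex 275 were called, or 9.17% beside 0.953%, 136 higher (0.436% of all) and 139 lower (0.517% of all). Under IL4 254 were called, or 8.47% beside 0.841%, 121 higher (0.473% of all) and 133 lower (0.368% of all). At least 1 treatment gave a call at 373 peaks (12.4% beside 1.51%). On the mean over the treatments 580 peaks were called, or 19.3% beside 4.54%, 273 higher (1.93% of all) and 307 lower (2.61% of all). The share was 18% in the lower segment, 22.7% in the upper and 4.23% in the rest of chromosome 9. These shares show what the rule selected.

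**Figure D1:**
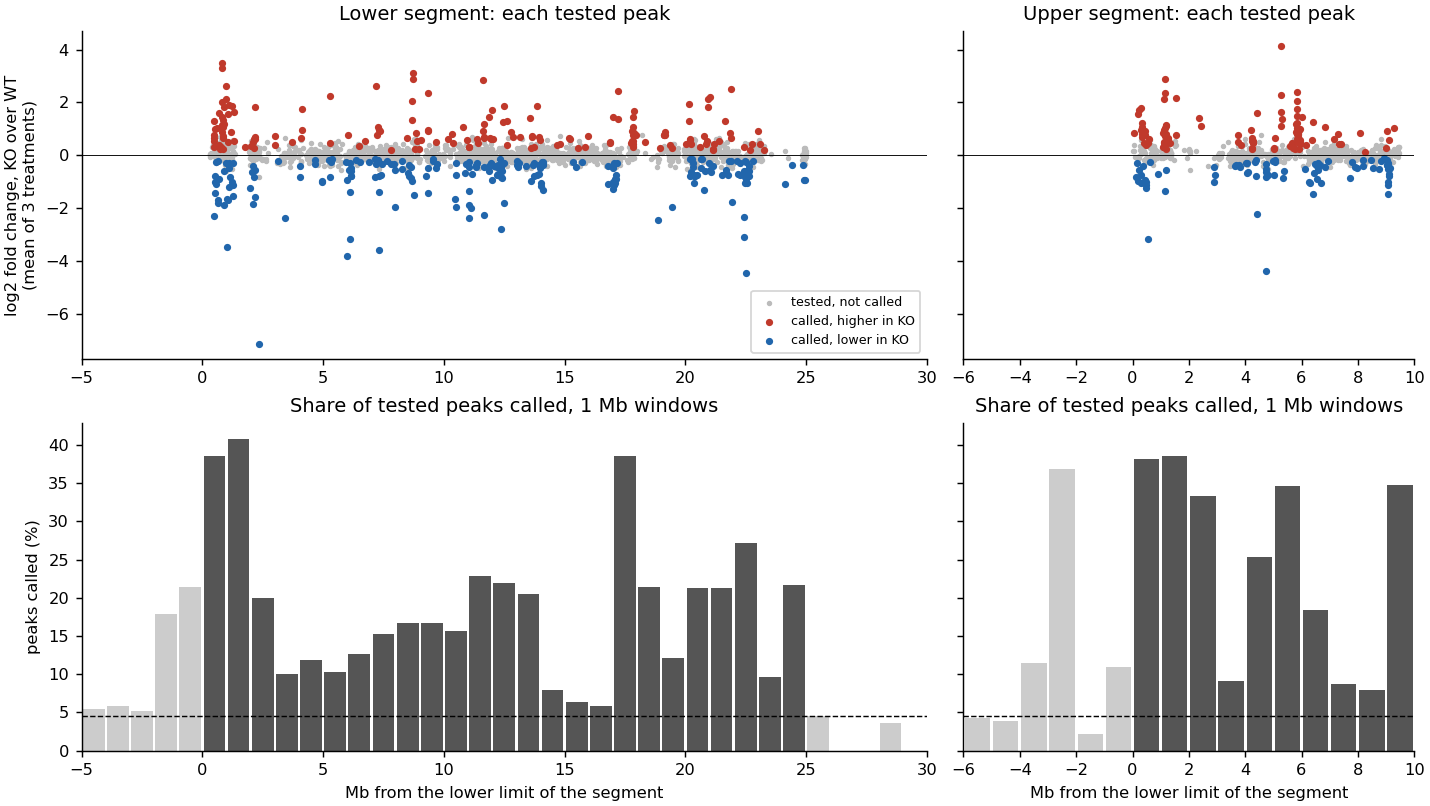
KO over WT log2 fold change of each tested peak, averaged over the 3 treatments (upper panels), and the percent of tested peaks called in windows of 1 Mb (lower panels), against the distance in Mb from the lower limit of each segment, with dark bars inside the segment, light bars outside it and a dashed line at the 4.54% of all tested peaks. Red (273) and blue (307) points lie side by side along both segments, and the called share falls to 4.55% in the window just above the lower segment.

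Most differences were small and a minority were large. The median absolute log2 fold change was 0.15 over the 3000 peaks and 0.10 over all tested peaks. At least 2-fold differences numbered 156 (85 higher, 71 lower; 0.491% of all tested peaks met this rule) and at least 4-fold differences 41 (24 higher, 17 lower; of all tested peaks 0.0899% met this rule, 0.0607% higher and 0.0292% lower). In 107 peaks the 12 KO libraries did not overlap the 12 WT libraries, 57 lying above and 50 below, which is 3.57% beside 0.24% of all tested peaks. The mean was below 1 CPM in KO and at least 4 times as high in WT at 14 peaks, and the reverse held at 15. The share of all peaks that met this rule was not computed, so nothing is read from these 2 counts.

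In the lower segment the largest differences lay mostly away from gene starts. A site 180.8 kb upstream of Zc3h12c, which encodes a CCCH zinc finger protein of the regnase family (chr9:52349284-52349500), read 0.739, 1.57 and 2.31 CPM in WT and had 0 counts in all 12 KO libraries. It held 213 counts over the WT libraries, so it was at least 70.3-fold higher in WT against a floor of 3 counts over the KO libraries (0.021 CPM). No other peak of the genome had 0 counts in all libraries of a genotype. Inside Pstpip1, which encodes an adaptor of the cytoskeleton and the pyrin inflammasome, a site 4.9 kb from the start (chr9:56094716-56095071) read 7.94, 9.54 and 12.9 CPM in WT and 0.711, 1.13 and 1.57 CPM in KO (−3.18, SE 0.10). The site 5.6 kb inside the non-coding gene 4930509E16Rik (chr9:72526095-72526452), next to Rfx7, read 7.32, 9.08 and 12.1 CPM in WT and 0.071, 0.417 and 0.755 CPM in KO (−4.47, SE 0.13). At all 3 sites every KO library lay below every WT library, at 0 CPM for Zc3h12c, below 1 CPM for 4930509E16Rik and at up to 1.57 CPM for Pstpip1.

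Other sites of the lower segment were higher in KO and below 1 CPM in every WT library. Inside Alg9, a mannosyltransferase of N-glycan assembly, a peak 36.1 kb from the start (chr9:50814668-50815484) read 0.0931, 0.378 and 0.661 CPM in WT and 3.36, 4.11 and 6.21 CPM in KO (+3.49, SE 0.16). A peak 265.6 kb past the start of Tle3, a Groucho-family corepressor (chr9:61638959-61639216), read 0.154, 0.534 and 0.845 CPM in WT and 2.57, 3.75 and 4.38 CPM in KO (+2.86, SE 0.16). Inside Rec114, a meiotic recombination gene, a peak 39.6 kb from the start read 0, 0.216 and 0.559 CPM in WT and 1.57, 2.26 and 3.44 CPM in KO (+3.12, SE 0.21). The remaining 4 of the 10 lower-segment peaks with the largest differences were lower in KO: 4930563M21Rik (−3.82), 1700017B05Rik (−3.59), Sik2 (−3.49), the gene of a salt-inducible kinase, and Mns1 (−3.11), a gene of the sperm flagellum. In each of the 10 the genotypes did not overlap in any library.

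In the upper segment the leading differences included genes of TGF beta and activin receptors. Upstream of Scn10a, a neuronal sodium channel gene, a peak at 18.2 kb (chr9:119736924-119737536) read 23.5, 27.9 and 34.7 CPM in WT and 0.781, 1.36 and 1.92 CPM in KO (−4.38, SE 0.09). Upstream of Myrip, which links Rab27a-bearing organelles to myosin, a peak at 30.7 kb (chr9:120272938-120273855) read 0.702, 1.16 and 1.55 CPM in WT and 13.8, 20.3 and 27.2 CPM in KO (+4.13, SE 0.09). These opposite changes lie within 1 Mb of each other. Inside Tgfbr2, the type II TGF beta receptor, a peak 18.5 kb from the start (chr9:116156573-116157166) read 1.66, 2.37 and 3.42 CPM in WT and 14.2, 17.2 and 20.9 CPM in KO (+2.88, SE 0.08). Inside Acvr2b, an activin receptor, a peak (chr9:119418004-119418386) read 2.58, 3.2 and 3.95 CPM in WT and 0.355, 0.646 and 1.15 CPM in KO (−2.24, SE 0.15). Among the other 6 of the 10 were Mir467h (−3.16), 1700020M21Rik (+2.40), a site with no gene assigned (+2.17), Stt3b (+1.78), a subunit of the oligosaccharyltransferase and a site inside Ulk4 assigned to Ctnnb1 (+1.43). At none of these did the genotypes overlap.

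**Figure D2:**
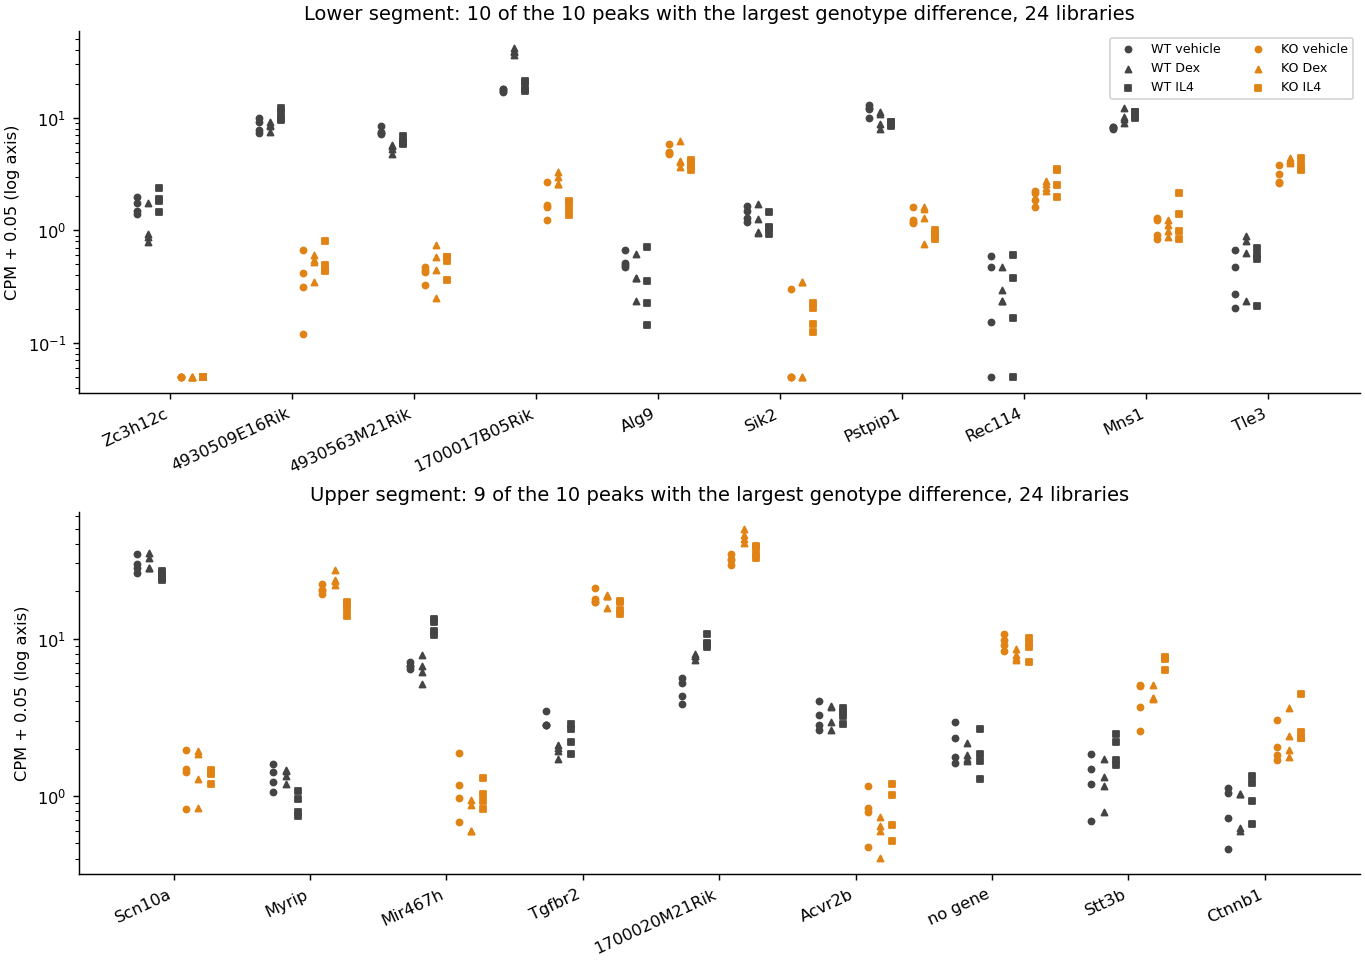
CPM plus 0.05 on a log axis in each of the 24 libraries, for the 10 peaks of the lower segment and 9 of the 10 of the upper with the largest KO against WT difference among those called under all 3 treatments, 1 peak a gene, with WT in grey, KO in orange and the treatment given by the symbol. In all 19 peaks the 12 KO libraries lie wholly on one side of the 12 WT libraries, under each of the 3 treatments, and Zc3h12c is at 0 CPM in every KO library.

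Along some genes neighbouring peaks differed in one direction, and along others they did not. The gene with most called peaks was 1700020M21Rik, a non-coding gene, where 22 of 28 tested peaks were called over 110.7 kb, all higher in KO (log2 0.24 to 2.40, median 0.91). The adjacent Ctnnb1, which encodes beta-catenin, had 5 of 11 called, all higher. At Tgfbr2 19 of 45 peaks over 239.8 kb were called, 17 higher and 2 lower (−1.36 to 2.88). At Vps13c, a lipid transfer gene, 8 of 13 were called, all higher (0.31 to 1.68), and at Anp32a, an acidic nuclear phosphoprotein gene, 8 of 18 were called, all lower (−2.79 to −0.14). Ppp2r1b, a scaffold subunit of the phosphatase PP2A, had 11 of 15 called, 9 higher and 2 lower. At Zc3h12c the directions were mixed, with 5 higher and 3 lower of 31, as they were at Tcf12 (3 higher, 4 lower of 33). In windows of 1 Mb, 23 of 25 called peaks at 116 to 117 Mb and 39 of 45 at 120 to 121 Mb were higher in KO, while 20 of 23 at 72 to 73 Mb were lower.

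For the gene lists that follow, the shares to set beside the counts are 4.54% of all tested peaks (1.93% higher, 2.61% lower) and 19.3% of the tested peaks of the segments, each with a median log2 fold change of 0.00. The segments were chosen by this contrast, so nothing is read from a list's share.

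The chemokine receptor genes had 22 of 89 tested peaks called, 4 higher and 18 lower in KO, or 24.7% beside 19.3% of the segments and 4.54% of all, with a median log2 fold change over the 89 of −0.05. Of 12 genes listed, 11 had a tested peak. Ccr3, the eotaxin receptor of eosinophils, had 8 of 17 called, 7 of them lower, the largest a peak 31.9 kb past the start (chr9:124053440-124054243) with 19.2, 22.3 and 27.5 CPM in WT and 5.77, 9.01 and 19.4 CPM in KO (−1.12, SE 0.17). Ccr2, the receptor for monocyte recruitment, had 3 lower and 1 higher of 6, led by a peak 20.5 kb upstream (−1.47, SE 0.25). Ccr1 had 1 of 16 called, at −0.12. Cx3cr1, the fractalkine receptor, read 13.1 CPM in WT and 14.3 CPM in KO over its start (medians) and was not called there (0.08, SE 0.07). Of its 6 tested peaks 3 were called, 1 higher and 2 lower (−0.27 to 0.64). The largest of them, 3.7 kb past the start (chr9:120064494-120064769), read 0.538, 1.07 and 2.24 CPM in WT and 0.863, 1.76 and 2.5 CPM in KO (0.64, SE 0.17). Its adjusted p was 0.013, and 0.0622 without KO IL4 4. In each named peak the KO and WT ranges overlapped.

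The TGF beta and SMAD genes had 38 of 137 tested peaks called, 21 higher and 17 lower, or 27.7% beside 19.3% of the segments and 4.54% of all, with a median of 0.02. Here the receptor gene Tgfbr2 gave 17 of the 21 higher peaks. Smad3, a receptor-activated transducer, had 2 higher and 3 lower of 23, and its largest, 81.1 kb upstream (chr9:63838879-63839288), read 0.102, 0.956 and 1.92 CPM in WT and 1.77, 3.74 and 5.27 CPM in KO (+1.87, SE 0.15). Smad6, an inhibitory SMAD, had 4 of 13 called, all lower (−0.72 to −0.36). The peaks over the starts of Smad3 (0.00, SE 0.04) and Smad6 (−0.10, SE 0.04) were not called. Acvr2b had 1 higher and 3 lower of 5, and Pias1, a SUMO ligase, 3 lower of 25.

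The innate signalling genes had 22 of 124 tested peaks called, 6 higher and 16 lower (17.7% beside 19.3% of the segments and 4.54% of all; median −0.04). Besides Pstpip1, with 3 of 16 called and all lower, and Zc3h12c, these included Azi2, a TBK1 adaptor, with 3 of 9 lower, the largest 130.1 kb upstream (−1.02, SE 0.20). Tnfaip8l3, a phosphoinositide transfer gene, had a peak at 16.3 kb inside it at −0.84 (SE 0.12). Myd88, the adaptor of Toll-like receptors, had 2 tested peaks and neither was called, and the same held for the kinase gene Map2k1.

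The lipid and steroid genes had 25 of 105 peaks called, 9 higher and 16 lower (23.8% beside 19.3% and 4.54%; median −0.01). Near the start of Lipc, hepatic lipase, a low peak (chr9:70953049-70953315) read 0.185, 0.397 and 0.447 CPM in WT and 1.1, 1.62 and 2.36 CPM in KO, without overlap (+2.14, SE 0.20). Upstream of Cyp11a1, the enzyme that starts steroid synthesis, a peak at 36.7 kb (chr9:57978111-57978430) read 2.38, 4.44 and 5.68 CPM in WT and 0.629, 1.11 and 1.44 CPM in KO, again without overlap (−1.95, SE 0.13). Fdx1, the ferredoxin that feeds electrons to mitochondrial steroid enzymes, had 1 of 6 called (−1.24), and Lactb, a mitochondrial serine protease-like gene, 1 higher (+1.44) and 3 lower of 9.

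The transcription genes had 36 of 167 called, 20 higher and 16 lower (21.6% beside 19.3% and 4.54%; median 0.00). Tcf12, an E protein, had a peak 11.4 kb inside it (chr9:71884609-71884819) at 0.0933, 0.21 and 0.559 CPM in WT and 0.696, 1.49 and 2.11 CPM in KO (+2.52, SE 0.24). Pou2af1, a lymphoid coactivator, was lower at its start (−1.01, SE 0.20) and higher 27.6 kb away (+1.85, SE 0.24). All 3 called peaks of Rora, a nuclear receptor, were higher (0.75 to 0.87), and all 4 of Rfx7 were lower (−1.04 to −0.24).

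The lysosome, protease and traffic genes had 24 of 157 called, 14 higher and 10 lower (15.3% beside 19.3% and 4.54%; median −0.02), of which Vps13c gave 8 of the higher. Adam10, a membrane sheddase, had 3 of 14 called, all lower, led by −1.33 (SE 0.15) at 112.6 kb from the start. A peak inside Trak1, a mitochondrial transport adaptor, was at −1.46 (SE 0.23). The adhesion and cytoskeleton genes had 44 of 236 called, 17 higher and 27 lower (18.6% beside 19.3% and 4.54%; median −0.01), among them 5 of 10 peaks of the tropomyosin gene Tpm1, all lower (−1.28 to −0.30). Thsd4, an extracellular matrix gene, had a peak 15.4 kb inside it at 2.03, 3.31 and 5.2 CPM in WT and 0.391, 0.826 and 1.81 CPM in KO (−1.96, SE 0.14). Upstream of Layn, a hyaluronan receptor gene, a peak at 4.6 kb read 1.07, 1.99 and 6.2 CPM in WT and 6.34, 8.79 and 14.4 CPM in KO (+1.91, SE 0.10). The cell division genes had 4 of 30 called (13.3%, median −0.05) and the mitochondrial, glycolytic and translation genes 9 of 96 (9.38%, median −0.01), both below the 19.3% of the segments and above the 4.54% of all. The latter included a peak 1.9 kb upstream of Dlat, a pyruvate dehydrogenase subunit at −1.79 (SE 0.17).

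The direction of a genotype difference was kept from treatment to treatment. The comparisons share no library, but the segments were chosen on these differences. They may also share mice or cultures, which the labels do not name. In 46 of 48 cases a library's best match in another group of its genotype had its own replicate number. Of the 217 peaks called under vehicle, 216 differed in the same direction under Dex, 183 of them called, and all 217 under IL4, 160 of them called. Their median size was 1.16 under vehicle, 1.06 under Dex and 1.05 under IL4 on the log2 scale. At 187 of the 217 the 4 KO libraries did not overlap the 4 WT libraries under Dex, and at 184 under IL4. Of all tested peaks, called under vehicle or not, 5.17% and 5.52% did not overlap, in either direction. The same shares among all peaks called under vehicle were not computed. Called under all 3 treatments in one direction were 146 peaks, 70 higher and 76 lower, 110 in the lower and 36 in the upper segment. That is 4.87% beside 0.339% of all tested peaks. Over all tested peaks 802 were called under vehicle and 441 under all 3 treatments in one direction. Such constancy was thus seen at peaks elsewhere too. Across the 3000 peaks Pearson's r of the fold changes was 0.81 between vehicle and Dex, 0.79 between vehicle and IL4 and 0.79 between Dex and IL4. Over all 130103 tested peaks it was 0.40, 0.37 and 0.38. Neighbouring peaks are not independent, so these r describe the peaks only.

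**Figure D3:**
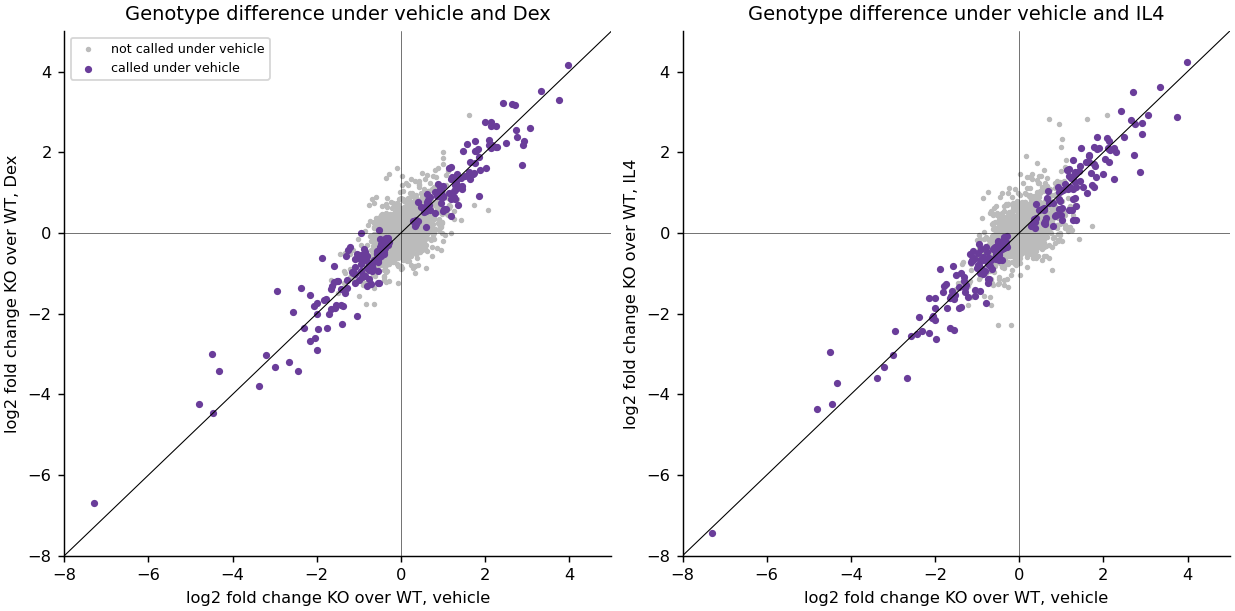
Log2 fold change of KO over WT under vehicle (x axis) against that under Dex (left) or IL4 (right) for the 3000 tested peaks of the segments, with the 217 called under vehicle in purple and the diagonal in black. Purple points follow the diagonal from −7.29 at Zc3h12c to 3.98 at Myrip, and 1 of the 217 lies on the other side of 0 under Dex.

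Whether a treatment altered the genotype difference was tested by interaction terms. These are other contrasts than those of the choice of segments, but from the same libraries. The genotype by Dex interaction gave 0 calls among the 3000 peaks in edgeR and 0 in DESeq2. At an unadjusted p below 0.05 it gave 133, or 4.43% beside 3.46% of all tested peaks. The genotype by IL4 interaction gave 2 calls (0.0667%), 1 positive and 1 negative, while 0.00231% of all tested peaks were called (0.000769% positive and 0.00154% negative). At an unadjusted p below 0.05 it gave 172, or 5.73% beside 4.1% of all tested peaks. A joint test of both gave 3 calls, or 0.1% beside 0.00615% of all (8 peaks). At an unadjusted p below 0.05 the joint test gave 198, or 6.6% beside 3.94%. All 3 unadjusted shares were thus above those of all tested peaks. With 1 library left out the IL4 calls numbered 1 to 3 and the joint calls 2 to 5, the latter highest without WT vehicle 4. A missed threshold does not show equality. The 95% interval of the Dex interaction lay within 1 log2 unit of 0 at 67.6% of the 580 peaks called between genotypes, and that of the IL4 interaction at 65.3%, with median SEs of 0.29 and 0.28.

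The joint test, fitted with 1 mean per group and no term for the replicate number, called 3 peaks, described here. A fit with the replicate number as a block within genotype called more, as counted at the end. Upstream of Nrg4, the gene of the epidermal growth factor family ligand neuregulin 4, a peak at 11.5 kb (chr9:55294966-55295299) opened with IL4 in WT. In WT it read 2, 1.34, 1.28 and 1.55 CPM under vehicle, 2.46, 0.739, 1.15 and 1.17 CPM under Dex and 8.18, 8.25, 7.95 and 8.38 CPM under IL4. In KO it read 1.49, 0.994, 1.57 and 0.642 CPM under vehicle, 1.79, 1.93, 1.42 and 2.13 CPM under Dex and 1.82, 1.59, 1.68 and 1.64 CPM under IL4. The 4 WT IL4 libraries stood above all other 20. IL4 raised the peak in WT (log2 2.37, SE 0.19, adjusted p 5.23e-19) and the KO value was 0.59 (SE 0.28, adjusted p 0.0984). The joint test gave an adjusted p of 3.55e-08, while the IL4 interaction alone, −1.78 (95% interval −2.49 to −1.07), had an adjusted p of 0.0855. Over the alternatives this adjusted p ran from 0.015 to 0.696 and was below 0.05 in 4 of them. The fits with the replicate number as a block gave 0.0496, and 0.015 with the block within genotype. The others were the fit without KO vehicle 4 (0.032) and that on the compared groups alone (0.0399).

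The mirror image was seen at a peak between the starts of Smad3 and Smad6 with no gene assigned (chr9:63927777-63928824). In KO it read 3.85, 2.98, 3.79 and 3.76 CPM under vehicle, 3.58, 3.65, 2.44 and 2.55 CPM under Dex and 8.34, 12.2, 11.1 and 10.2 CPM under IL4. In WT it read 3.38, 3.69, 2.67 and 2.89 CPM under vehicle, 2.11, 2.58, 3.94 and 3.17 CPM under Dex and 2.4, 2.28, 3.47 and 3.35 CPM under IL4. The 4 KO IL4 libraries stood above all others. IL4 raised it in KO (1.57, SE 0.15, adjusted p 1.41e-14), the WT value was −0.18 (SE 0.20, adjusted p 0.521), and the interaction was 1.75 (95% interval 1.25 to 2.25, adjusted p 8.48e-05).

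The third peak, 88.8 kb from the start of 1700020M21Rik (chr9:120826079-120826874), was higher in KO under every treatment, by less under IL4. In WT it read 5.53, 3.8, 4.27 and 5.15 CPM under vehicle, 7.74, 7.75, 7.96 and 7.28 CPM under Dex and 9.34, 8.84, 9.18 and 10.7 CPM under IL4. In KO it read 31.8, 29.2, 31.4 and 34.4 CPM under vehicle, 40.2, 42.8, 45.1 and 49.8 CPM under Dex and 32.6, 38.8, 34.2 and 38.1 CPM under IL4. The genotypes did not overlap under any treatment. IL4 raised it in WT (0.99, SE 0.13, adjusted p 2.55e-10) and the interaction was −0.80 (SE 0.15, adjusted p 0.0232, joint adjusted p 0.00771). With 1 library left out its size stayed between −0.91 and −0.72, while its adjusted p passed 0.05 in 7 cases. These were without WT vehicle 2 (0.312) or 3 (0.212), WT IL4 4 (0.127), KO vehicle 1 (0.0535) or 4 (0.0852), or KO IL4 1 (0.0758) or 3 (0.0505), with sizes of −0.81 to −0.72. The joint call was lost without WT IL4 4 (adjusted p 0.103).

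**Figure D4:**
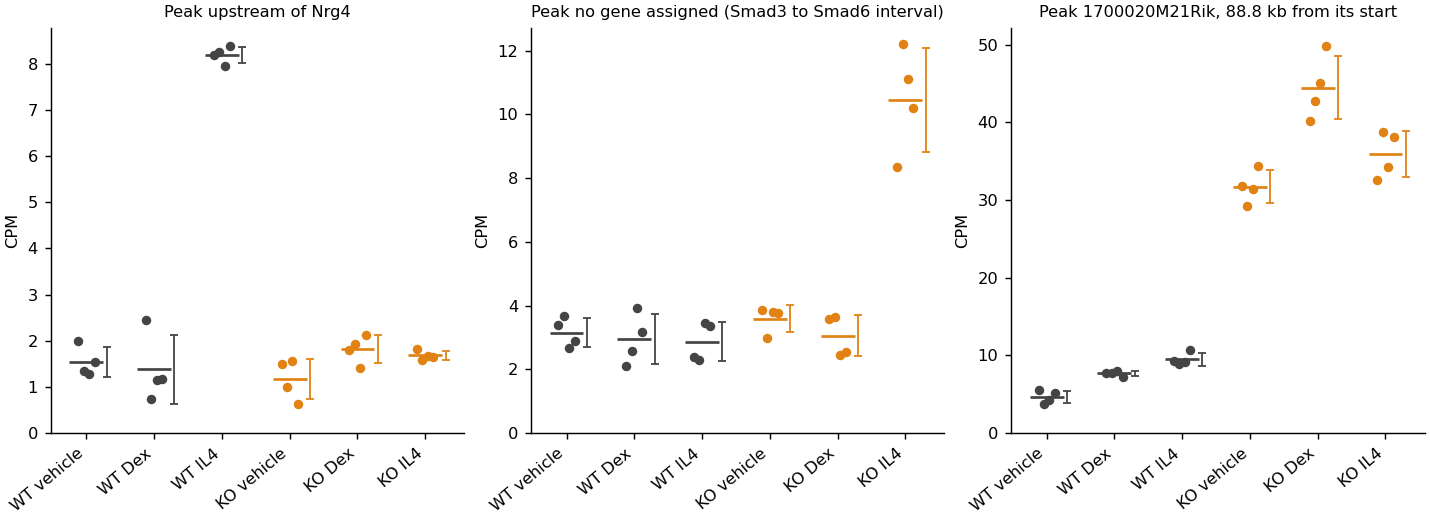
CPM in each library, by group, at the 3 peaks called in the joint genotype by treatment test, with points for the 4 libraries of a group, a line for their mean and a bar for 1 SD either way. The WT IL4 libraries (7.95 to 8.38 CPM) stand apart upstream of Nrg4, the KO IL4 libraries (8.34 to 12.2 CPM) between Smad3 and Smad6, and at 1700020M21Rik the 12 KO libraries lie at 29.2 CPM or more.

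Within each genotype the peaks of the segments responded to the treatments about as often as peaks elsewhere. With Dex in WT 511 were called, 242 higher and 269 lower, or 17% beside 16.6% of all tested peaks, and with IL4 in WT 1062, 618 higher and 444 lower, or 35.4% beside 35.4%. In KO 419 were called with Dex (14% beside 13.6%), 228 higher (6.97% of all) and 191 lower (6.63% of all), and 948 with IL4 (31.6% beside 31%). Of the 511 WT Dex calls 271 (53%) were also called in the same direction in KO, against 55.7% of such calls over all peaks, and of the 1062 IL4 calls 720 (67.8%, against 69.6%). Peaks called between genotypes were called with Dex in WT in 23.3% of cases, beside 15.5% of the other tested peaks of the segments. With IL4 in WT these shares were 36.6% and 35.1%. Peaks called between genotypes were also longer and stronger, with medians of 498 bases and 3.39 CPM beside 414 bases and 2.6 CPM. The shares were not matched for this, and its part in them was not tested.

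The largest Dex responses in WT, in both directions, were shared by KO at 4 of 5 peaks. A peak 177.8 kb upstream of Tgfbr2 (chr9:116352940-116353475) rose from a mean of 0.755 to 3.68 CPM in WT (2.33, SE 0.26, adjusted p 7.86e-12) and from 1.22 to 3.83 CPM in KO (1.67, adjusted p 1.98e-08). Near Pias1 (chr9:63006131-63006640) the mean rose from 2.2 to 8.41 CPM in WT and from 2.13 to 6.67 CPM in KO (1.92 and 1.65). At Uaca, a regulator of apoptosis, the mean rose from 2.98 to 10.9 CPM in WT and from 2.23 to 8.28 CPM in KO (1.89 and 1.88). Within Limd1, a LIM domain scaffold gene, a peak fell from 7.92 to 2.42 CPM in WT and from 8.08 to 3.65 CPM in KO (−1.73 and −1.12). A weak peak inside Myo1e assigned to Mir5626 fell from 0.741 to 0.16 CPM in WT (−2.06, SE 0.50, adjusted p 0.00148), with −0.34 in KO (adjusted p 0.649) and an interaction of 1.71 (SE 0.65, adjusted p 1).

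The 5 peaks with the largest IL4 responses in WT all opened, and they did so in both genotypes. A peak within Tex9 (chr9:72485516-72485976) rose from a mean of 0.716 to 15.2 CPM in WT (4.41, SE 0.22, adjusted p 2.08e-27) and from 0.599 to 7.23 CPM in KO (3.56). A second peak near Pias1 rose from 0.328 to 4.84 CPM in WT (3.89) and from 0.607 to 4.51 CPM in KO (2.97). At Map2k5, a kinase of the ERK5 cascade, the mean rose from 1.76 to 15.6 CPM in WT (3.16) and from 2.13 to 14.7 CPM in KO (2.80). The other leading peaks were those of Parp6 (3.43 in WT, 3.17 in KO) and 4930502A04Rik (3.32 in WT, 3.02 in KO). None of these 5 peaks was called in the genotype by IL4 interaction.

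**Figure D5:**
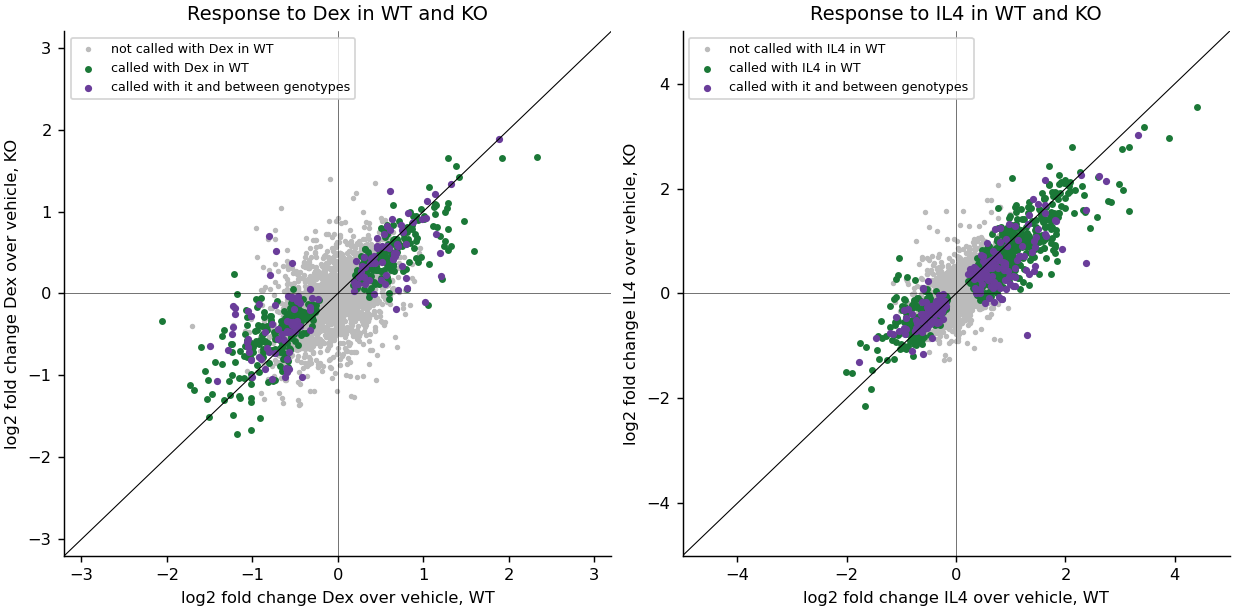
Log2 fold change with Dex (left) or IL4 (right) over vehicle in WT (x axis) and KO (y axis) for the 3000 tested peaks, with green for peaks called with the treatment in WT (511 with Dex, 1062 with IL4) and purple for those of them also called between genotypes (135 and 212). Both colours lie along the diagonal, and 67 of the 135 and 131 of the 212 purple peaks were called in the same direction in KO. Over all tested peaks this held for 55.7% of the WT Dex calls and 69.6% of the WT IL4 calls.

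The limits of the segments follow the data only in part. In the 1 Mb below 50 Mb 6 of 28 tested peaks were called between genotypes (21.4%, Wilson 95% interval 10.2 to 39.5), and in the 1 Mb above it 40 of 104 (38.5%, 29.7 to 48.1). Within 0.5 Mb of this limit the order was reversed, with 6 of 12 called below (50%) and 5 of 25 above (20%). Below 75 Mb 5 of 23 were called (21.7%, 9.66 to 41.9) and above it 4 of 88 (4.55%, 1.78 to 11.1). Below 115 Mb 12 of 109 were called (11%, 6.41 to 18.3) and above it 29 of 76 (38.2%, 28.1 to 49.4). The limit at 125 Mb could not be examined, since all 46 tested peaks from 124 Mb on started below 124.5 Mb. The 2 Mb before the lower segment had 18.9% called and the 4 Mb before the upper one 11.5%, against 3.83% below 48 Mb and 2.64% from 76 to 111 Mb. The intervals cover counting error only, and neighbouring peaks are not independent.

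The peaks next to the limits differed little, and called peaks were found on both sides. The nearest called under all 3 treatments inside the lower segment was 3.5 kb upstream of Plet1 (chr9:50490915-50491138), with 1.01, 1.53 and 2.04 CPM in WT and 2.78, 3.68 and 4.25 CPM in KO (+1.30, SE 0.12). Outside it, a peak inside Ncam1, a neural cell adhesion gene (chr9:49796748-49797474), read 0.653, 1.38 and 2.12 CPM in WT and 2.13, 2.92 and 3.4 CPM in KO (+1.08, SE 0.13), also without overlap. At the other end the last such peak lay upstream of Fam214a (chr9:74938772-74939181; −0.95, SE 0.12) and the next outside inside Lysmd2 (chr9:75632897-75633194; −2.09, SE 0.24). The nearest called under all 3 treatments outside the upper segment was upstream of Gpd1l (chr9:114960694-114961188; −2.12 under vehicle, −1.82 under Dex and −2.08 under IL4). The last inside it was assigned to 2010315B03Rik (chr9:124279498-124280027), with 4.8, 6.75 and 8.35 CPM in WT and 8.6, 14.5 and 23.4 CPM in KO (+1.05, SE 0.09). Of the 18 tested peaks next to the limits at 50, 75 and 115 Mb, 3 on each side, 15 lay between −0.33 and 0.37, and the others were that of Gpd1l, 0.90 at Ncam1 and 0.84 at Osbpl10.

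Inside the segments the called share was uneven. From 50 to 53 Mb 33.2% of tested peaks were called, from 53 to 57 Mb 11.5%, from 57 to 64 Mb 18.7%, from 64 to 67 Mb 6.67% and from 67 to 75 Mb 22.8%. In the upper segment the shares were 37.8% from 115 to 118 Mb, 9.09% from 118 to 119 Mb, 26.3% from 119 to 122 Mb, 8.29% from 122 to 124 Mb and 34.8% from 124 to 125 Mb. Both segments thus held stretches with a share nearer to the 4.54% of all tested peaks than to that of their neighbours. They lay at 53 to 57 Mb and 64 to 67 Mb, and at 118 to 119 Mb and 122 to 124 Mb. The stretches were cut by hand and not by a rule.

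In position and size the peaks of the segments were like peaks in general. Within 1 kb of a gene start lay 9.5% of them, beside 10.7% of all tested peaks, and 13.6% of those in the authors' deposited table overlapped a FANTOM enhancer, beside 13.8%. Median length was 431 and 435 bases, and median level 2.75 and 2.85 CPM. Peaks within 1 kb of a start were called in 14% of cases (40 of 285) and those beyond in 19.9%, against 3.49% and 4.66% over all tested peaks. When called, the median absolute log2 fold change was 0.27 near a start and 0.69 beyond it, against 0.25 and 0.41 over all. The 3000 peaks were assigned to 356 genes, and 287 peaks had no gene.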

How the data were processed

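ATAC-seq was done on 24 libraries in 6 groups of 4. Per the submitters' processing notes, which give no roles, order or versions, fastp, Bowtie2, SAMtools, MACS2, featureCounts, edgeR and the mm10 build were used. The authors deposited raw read counts of 144411 peaks in each library, not normalized, and a table of peaks with their nearest gene, distance to its start and FANTOM enhancer overlap. Steps for duplicates and transposase offsets were not given in the sources used here.

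Peaks were filtered with filterByExpr (minimum count 10, total 15), which left 130103 peaks, and scaled by TMM. One mean per group was fitted to all 24 libraries with edgeR 4.0.16 (robust quasi-likelihood, R 4.3.3), and p-values were adjusted by Benjamini-Hochberg over all tested peaks. Genes come from the authors' deposited table for 1700 of the 3000 tested peaks and, for 1013, from the nearest start that table implies within 50000 bases. The procedure was tested on simulated data with 127327 peaks. For the IL4 interaction 52.9% of 34 2-fold and 87.9% of 33 4-fold changes were called, with 3 unchanged peaks. For the contrast averaged over treatments 100% of 33 2-fold changes were called, with 5 unchanged peaks. All simulated peaks had the same dispersion and no variation shared by replicate number, so these rates need not hold for the data.

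Named peaks are, per segment, the 10 with the largest difference among those called under all 3 treatments, 1 a gene; for listed genes the peak at the start and the largest called one; the peaks of the joint test; the 5 largest responses to each treatment in WT; and the peaks at the limits. Of these, 1 peak of the upper segment and 1 listed gene are not reported here singly. Genes named for runs of peaks or counts alone, such as Tpm1, Rora and Rfx7, and the promoters of Neo1 and Plcd1 were chosen after their values were seen. The segments, gene lists and tests were chosen with earlier results of these data known. Alternatives were other scalings, filters, thresholds, DESeq2 1.42.0, a replicate term and leaving out each library. Sequences of peaks away from promoters are not used here.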

Additional observations from a re-analysis of the deposited data

Results flagged for a closer look

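In 13 of 198 groups of 4 libraries at the named peaks, 1 library stood far from the other 3, measured by its gap over the range of the group; chance gives about 1 in 20. At the peaks with the largest genotype differences, these were WT Dex 1 at Zc3h12c (1.69 CPM, the others 0.739 to 0.887), KO IL4 2 at 4930509E16Rik (0.755, the others 0.384 to 0.442), KO vehicle 1 at Alg9 (5.84, the others 4.71 to 4.9), KO vehicle 1 at Sik2 (0.249, the others 0) and KO vehicle 4 at Pstpip1 (1.56, the others 1.12 to 1.18). In the upper segment they were WT vehicle 3 (3.42, the others 2.77 to 2.79) and KO Dex 1 (15.5, the others 18.5 to 18.9) at Tgfbr2, KO Dex 4 at Stt3b (5.03, the others 4.08 to 4.17) and KO IL4 1 at the peak assigned to Ctnnb1 (4.41, the others 2.27 to 2.5). Among the peaks that responded to treatment they were KO vehicle 2 at the peak between Smad3 and Smad6 (2.98, the others 3.76 to 3.85), WT Dex 3 (9.27, the others 8.02 to 8.21) and KO vehicle 3 (1.05, the others 0.426 to 0.497) at the 2 peaks near Pias1, and KO Dex 3 at Tex9 (0.944, the others 0.237 to 0.298).

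The effect of treatment differed between genotypes at 3 peaks by the joint edgeR test without a replicate term: upstream of Nrg4 (adjusted p 3.55e-08), between the starts of Smad3 and Smad6 (adjusted p 3.55e-08) and at 1700020M21Rik (adjusted p 0.00771). Over the alternatives the first ranged from 5.95e-12 to 1.02e-06 and the second from 5.95e-12 to 5.2e-06.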

How the results depend on the processing

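Of the values of single named peaks under the alternatives, 5735 kept their direction and their side of the threshold, 38 passed it newly, 74 fell short of it and 0 reversed. The count of peaks called under all 3 treatments (146) was an alternative measure chosen after seeing the data. With DESeq2 and at an adjusted p below 0.01, the IL4 interaction gave 1 call each in place of 2. At 0.01 Dex gave 337 calls in WT (511) and 252 in KO (419). With windows of 0.5 Mb in place of 1 Mb, the called share was 50% below and 20% above the limit at 50 Mb (12 and 25 peaks; the order reversed), 15.8% below and 2.86% above 75 Mb, and 17.1% below and 54.5% above 115 Mb.

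With 1 library left out, the calls ranged from 180 to 199 under vehicle, 227 to 255 under Dex, 219 to 233 under IL4, 537 to 585 on the mean and 133 to 143 under all 3 treatments. Non-overlapping peaks ranged from 108 to 115, beside 107 with all libraries. This count can only stay or rise when a library is left out, so the range does not test it. The interactions ranged from 0 to 0 for Dex, 1 to 3 for IL4 and 2 to 5 jointly, and the responses from 426 to 490 (Dex) and 951 to 1001 (IL4) in WT and 315 to 444 and 788 to 887 in KO.

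In the main fit the replicate numbers were not taken as pairs, since the labels name no shared mouse or culture. Same-numbered libraries of a genotype correlated in their deviations at 0.003 to 0.202 (median 0.0785), over 0.1 in 9 of 24 pairs. For libraries of a genotype with different numbers the median was −0.024, and 0 of 72 pairs passed 0.1. In 46 of 48 cases a library's best match in another group of its genotype had its own number. The main fit has no term for this shared variation and treats the 24 libraries as independent. If same-numbered libraries share a source, the SEs and p-values of the averaged contrast can be too small. With the replicate number as a block the calls were 232 under vehicle, 297 under Dex, 271 under IL4, 620 on the mean and 153 under all 3 treatments. The block gave 0, 3 and 3 interaction calls (Dex, IL4, joint), and 521, 1088, 439 and 970 treatment calls (Dex and IL4 in WT, then in KO). With the block within genotype, the IL4 interaction gave 4 and the joint test 12 calls. The median depth was 33 counts per peak and library. In the simulated data, which were simpler than the real ones, 52.9% of 2-fold IL4 interactions were called. Interactions can therefore be missed, at a rate that was not measured for the real data.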
